A study of Mus musculus with 24 samples.

Results

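Collagen genes were followed across young and aged mice with and without BAM15. A gene was a member when its symbol in the deposited table of normalized values was Col, a number, the letter a and a number, and 37 of the 17541 genes in the count table met that rule. Of these, 30 had enough counts to be tested, and the other 7 (Col4a6, Col8a2, Col9a3, Col17a1, Col19a1, Col25a1 and Col26a1) were removed by the filter on low counts. The reference annotation names 44 collagen symbols, so 7 (Col2a1, Col6a5, Col9a1, Col9a2, Col10a1, Col22a1 and Col24a1) lay outside the rule and were not analysed here.

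RNA came from inguinal white adipose tissue, the fat depot under the skin of the groin, of wild-type C57BL/6J mice that the series title describes as fed a high-fat diet. The 4 groups were Young CTRL (7 mice) and Young BAM15 (6 mice), both of 16 weeks, and Aged CTRL (6 mice) and Aged BAM15 (5 mice), both of 92 weeks. All 4 groups carry the same strain label, Young CTRL was the reference, and BAM15 is a small molecule that uncouples mitochondrial respiration from ATP synthesis. The dose and length of treatment and the sex of the mice are not in the labels, and only 2 ages were sampled.

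Collagens are the main structural proteins of the extracellular matrix, each built from 3 alpha chains wound into a triple helix. Fibrillar collagens (chiefly types I, III and V here, with types XI and XXVII in the same class) form the cables that give tissue its tensile strength. Type V sets fibril diameter. Type IV forms the sheet-like network of basement membranes, which in fat surround every adipocyte and every blood vessel. Type VI forms beaded filaments at the adipocyte surface and is abundant in fat, and types XV and XVIII link basement membranes to the matrix around them. Fibroblast-like progenitors are a chief source of fibrillar collagen in fat.

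Library totals ran from 8.62 to 21.9 M counts. Levels are given as CPM, counts divided by the library size in M counts after scaling with TMM factors, and the libraries read 3′ ends, so values are not scaled for gene length and an order between genes is only a rough guide. All 8 adipocyte markers were present in every group, with sums of 19327 to 88662 CPM. The mitochondrial ribosomal RNA mt-Rnr2 was scarce in mouse 4 of Young CTRL, mouse 2 of Aged CTRL and mice 2 and 5 of Aged BAM15, where its share of the library did not exceed 0.257%. Its share was 0.722% or more in each of the remaining 20. The 4 libraries with little mt-Rnr2 were also the deepest, at 18.4 to 21.9 M counts, where the remaining 20 reached at most 17.9 M. All mitochondrial genes together took 11.99% to 21.35% of the counts in these 4, and at most 9.28% in the remaining 20. The sum of 8 keratinocyte markers, skin keratins among them, reached 2091 CPM in Young CTRL, where 2 libraries (1 and 7) stood out. Skeletal muscle markers reached 57035 CPM in Young BAM15 3, 51984 CPM in Young CTRL 7, 20853 CPM in Aged CTRL 1 and 9082 CPM in Aged BAM15 1. Where they change, the results below are given with and without the 4 libraries with little mt-Rnr2. The same holds for Young CTRL 1, Young CTRL 7 and Young BAM15 3, the libraries with skin keratins or most muscle transcripts. In bulk tissue, fewer cells of a type and less RNA per cell cannot be told apart.

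The most counted fibrillar genes over the 24 mice were Col3a1 (mean 1063 CPM), Col1a2 (873 CPM) and Col1a1 (753 CPM), and the type IV pair Col4a1 and Col4a2 had 845 and 551 CPM. Among the other classes the leading genes were Col6a3 (373 CPM) of the beaded filaments, Col15a1 (330 CPM) of the multiplexins, Col14a1 (34.7 CPM) of the fibril-associated collagens, Col8a1 (11.6 CPM) of the network-forming and anchoring collagens, and Col23a1 (6.92 CPM) of the transmembrane collagens. At the other end, 11 of the 37 genes averaged under 1 CPM, and 20 averaged at least 5 CPM. Col17a1, a transmembrane collagen of the skin's basal layer, had 13.4 CPM in Young CTRL 7 and 11.9 in Young CTRL 1, the 2 libraries with skin keratins, and a median of 0.0743 CPM in Young CTRL as a whole.

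Collagen counts made up 0.751% ± 0.185 of the library in Young CTRL (SD, n = 7), 0.528% ± 0.123 in Young BAM15 (SD, n = 6), 0.604% ± 0.159 in Aged CTRL (SD, n = 6) and 0.380% ± 0.121 in Aged BAM15 (SD, n = 5). These shares were not tested because they sum over the members. The edgeR quasi-likelihood test, adjusted over 15939 genes, called 4 of the 30, all lower, and all in Aged BAM15 against Young CTRL. They were Col3a1, Col5a3, Col6a2 and Col6a1. That comparison called 1.29% of all genes, and 0.514% as lower. It holds age and treatment together, so its log2 change is the sum of the change with age in CTRL mice and the change with BAM15 in aged mice.

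The other comparisons called 0 of the 30 collagen genes. With age in CTRL mice the share of all genes called was 0.207%, and for BAM15 in aged mice, BAM15 in young mice and the interaction (the BAM15 effect in aged mice minus that in young mice) it was 0%. At an unadjusted p under 0.05, 7 of 30 were lower and 0 higher with age, where 3.86% of all genes were lower and 4.56% higher. In aged mice with BAM15, 9 were lower and 1 higher, against 4.59% of all genes lower and 4.50% higher. In young mice with BAM15, 10 were lower and 2 higher, against 6.88% of all genes lower and 6.18% higher. The interaction gave 0 of 30 at that threshold, where 5.08% of all genes passed in either direction. Between Aged BAM15 and Young CTRL, 12 were lower and 0 higher, against 7.85% of all genes lower and 8.98% higher.

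These counts at an unadjusted p move with single libraries. With age, the 7 lower genes became 3 without Aged CTRL 1 or 6 and 4 without Aged CTRL 2, Aged CTRL 5 or Young CTRL 3. For BAM15 in aged mice, the 9 became 5 without Aged BAM15 2 or 4. For BAM15 in young mice, the 10 became 3 without Young CTRL 4, 5 without Young BAM15 5, and 6 without Young CTRL 3 or 6. Without all 4 libraries with little mt-Rnr2, where 37 collagen genes passed the filter, the 3 counts were 5, 5 and 10.

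Most collagen genes leaned to the lower side whether or not they passed. The log2 change was below 0 in 21 of 30 genes with age (53.5% of all genes), in 26 of 30 with BAM15 in aged mice (48.3% of all genes), in 22 of 30 with BAM15 in young mice (47.3% of all genes) and in 25 of 30 between Aged BAM15 and Young CTRL (50.9% of all genes). The median change over the 30 genes was -0.34 with age, -0.52 with BAM15 in aged mice and -0.47 with BAM15 in young mice, where the medians over all genes were -0.04, 0.02 and 0.03. Collagen genes share libraries and often vary together between mice, and the comparisons share the CTRL groups, so these counts are not independent of one another.

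**Figure D1:**
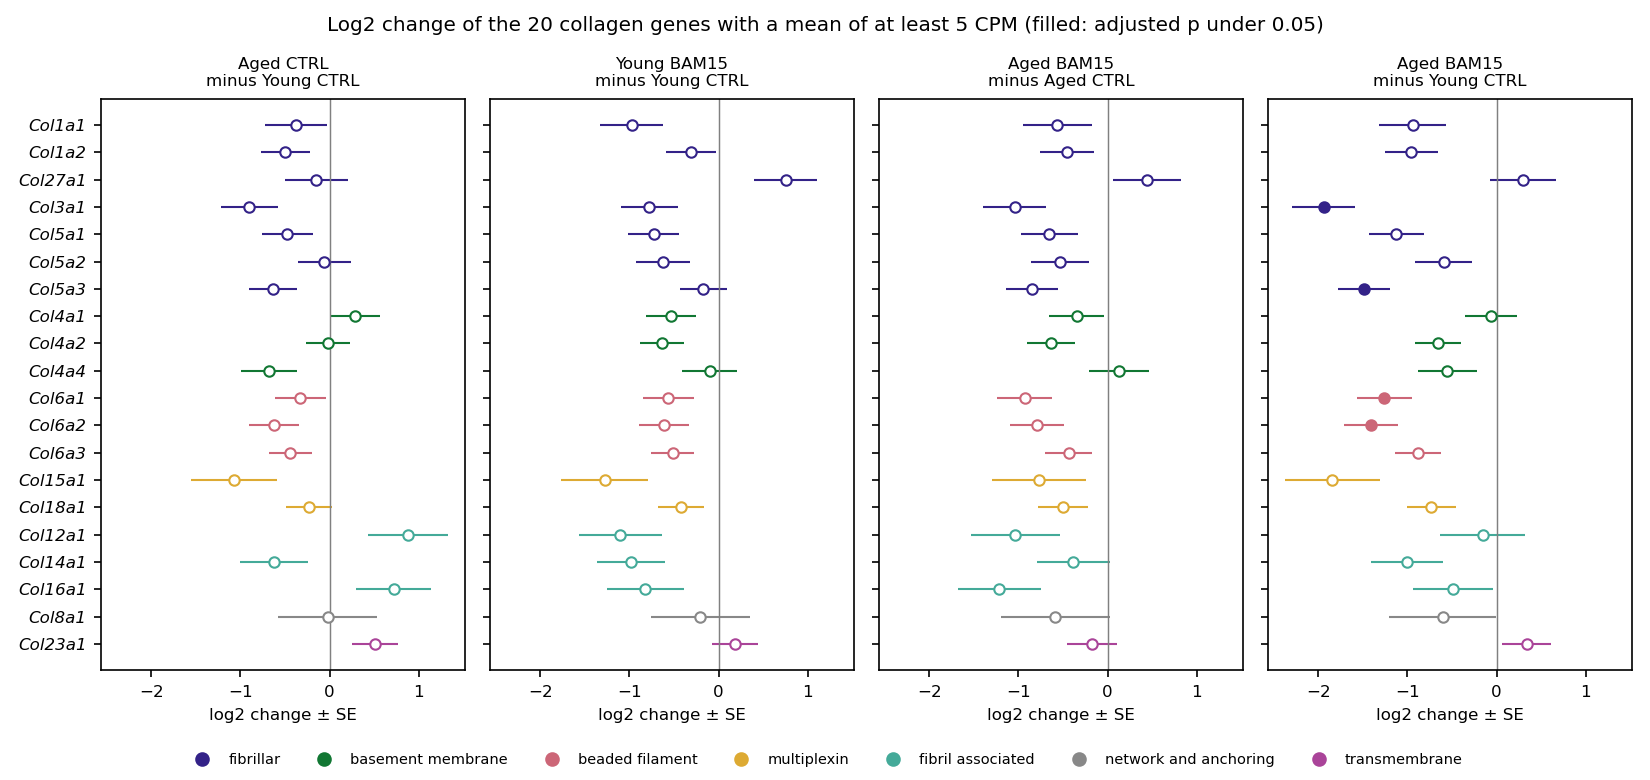
Log2 change (x axis, with its standard error) of the 20 collagen genes averaging 5 CPM or more, coloured by class, in 4 comparisons, where filled points have an adjusted p under 0.05. In Aged BAM15 minus Young CTRL, 18 of the 20 lie below 0, and the filled points are Col3a1, Col5a3, Col6a1 and Col6a2. The panels share control mice.

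Among the fibrillar genes, Col3a1 encodes the single chain of type III collagen, the fine fibrils that accompany type I. Its lowest, median and highest levels were 639.8, 1645 and 2640 CPM for Young CTRL mice, 499, 1062 and 1174 CPM in Young BAM15, and 451, 875 and 1450 CPM in Aged CTRL, and the 5 Aged BAM15 mice had 251, 341, 357, 505 and 757 CPM. All 5 Aged BAM15 mice lay below the Young CTRL mean of 1699 CPM ± 622 (SD, n = 7), but the ranges met because Young CTRL 1, at 639.8 CPM, lay far below the rest of its group. Col3a1 fell by 1.94 ± 0.36 on the log2 scale (SE) in Aged BAM15 against Young CTRL, 3.84-fold lower (adjusted p = 0.00714). Its changes with age (-0.90 ± 0.32, adjusted p = 0.340), with BAM15 in aged mice (-1.04 ± 0.35, adjusted p = 0.364) and with BAM15 in young mice (-0.78 ± 0.32, adjusted p = 0.311) did not pass on their own.

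Col5a3 encodes a minor chain of type V collagen. Its lowest, median and highest levels were 194, 337 and 426 CPM for Young CTRL mice, 184, 293 and 412 CPM in Young BAM15, and 105, 234 and 266 CPM in Aged CTRL, and the 5 Aged BAM15 mice had 72.5, 74.9, 118, 132 and 206 CPM. Only the highest Aged BAM15 mouse reached into the Young CTRL range, while both young groups spanned nearly the same levels. Col5a3 fell by 1.48 ± 0.29 in Aged BAM15 against Young CTRL (adjusted p = 0.0127). The log2 change was -0.63 ± 0.27 with age, -0.85 ± 0.29 with BAM15 in aged mice and -0.17 ± 0.26 with BAM15 in young mice, none of which passed. The difference between both BAM15 effects was -0.68, the value with the smallest p among collagen genes of at least 5 CPM in the interaction, and it did not pass either.

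Col1a1 and Col1a2 encode the chains of type I collagen, which winds 2 alpha-1 chains with 1 alpha-2 chain. Col1a1 ran from 385 to 1958 CPM in Young CTRL (median 993), from 275 to 637 CPM in Young BAM15 (median 584) and from 489 to 1243 CPM in Aged CTRL (median 764), and the 5 Aged BAM15 mice had 157, 326, 572, 739 and 929 CPM. The Young BAM15 mice lay below the Young CTRL mean of 1046 CPM in 6 of 6 cases, and its change of -0.98 ± 0.36 had the smallest p among collagen genes in that comparison (adjusted p = 0.272). For Col1a2 the same contrast gave -0.31 ± 0.28. Col1a2 averaged 1122 CPM ± 430 in Young CTRL (SD, n = 7), 906 ± 228 in Young BAM15 (SD, n = 6), 796 ± 177 in Aged CTRL (SD, n = 6) and 579 ± 198 in Aged BAM15 (SD, n = 5). Both type I genes had changes of similar size in Aged BAM15 against Young CTRL, -0.94 ± 0.38 for Col1a1 and -0.96 ± 0.30 for Col1a2, and neither passed (adjusted p = 0.200 and 0.103).

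Of the remaining fibrillar genes, Col5a1, the main chain of type V collagen, came nearest to the threshold in Aged BAM15 against Young CTRL, at -1.12 ± 0.31 (adjusted p = 0.0695). Levels were 224 CPM ± 108 in Young CTRL, 135 ± 37.9 in Young BAM15, 162 ± 46.9 in Aged CTRL and 103 ± 31.1 in Aged BAM15. Col5a2, its partner chain, averaged 179 CPM in Young CTRL mice against 172 CPM in Aged CTRL mice, a change with age of -0.06 ± 0.30. Col27a1, a fibrillar collagen known from cartilage, leaned the other way, from 11.3 CPM ± 6.08 in Young CTRL to 18.97 ± 5.08 in Young BAM15 (0.75 ± 0.35, adjusted p = 0.364), and 0 of 6 Young BAM15 mice lay below the Young CTRL mean. Col11a1 and Col11a2 averaged 0.925 and 0.617 CPM over all mice.

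**Figure D2:**
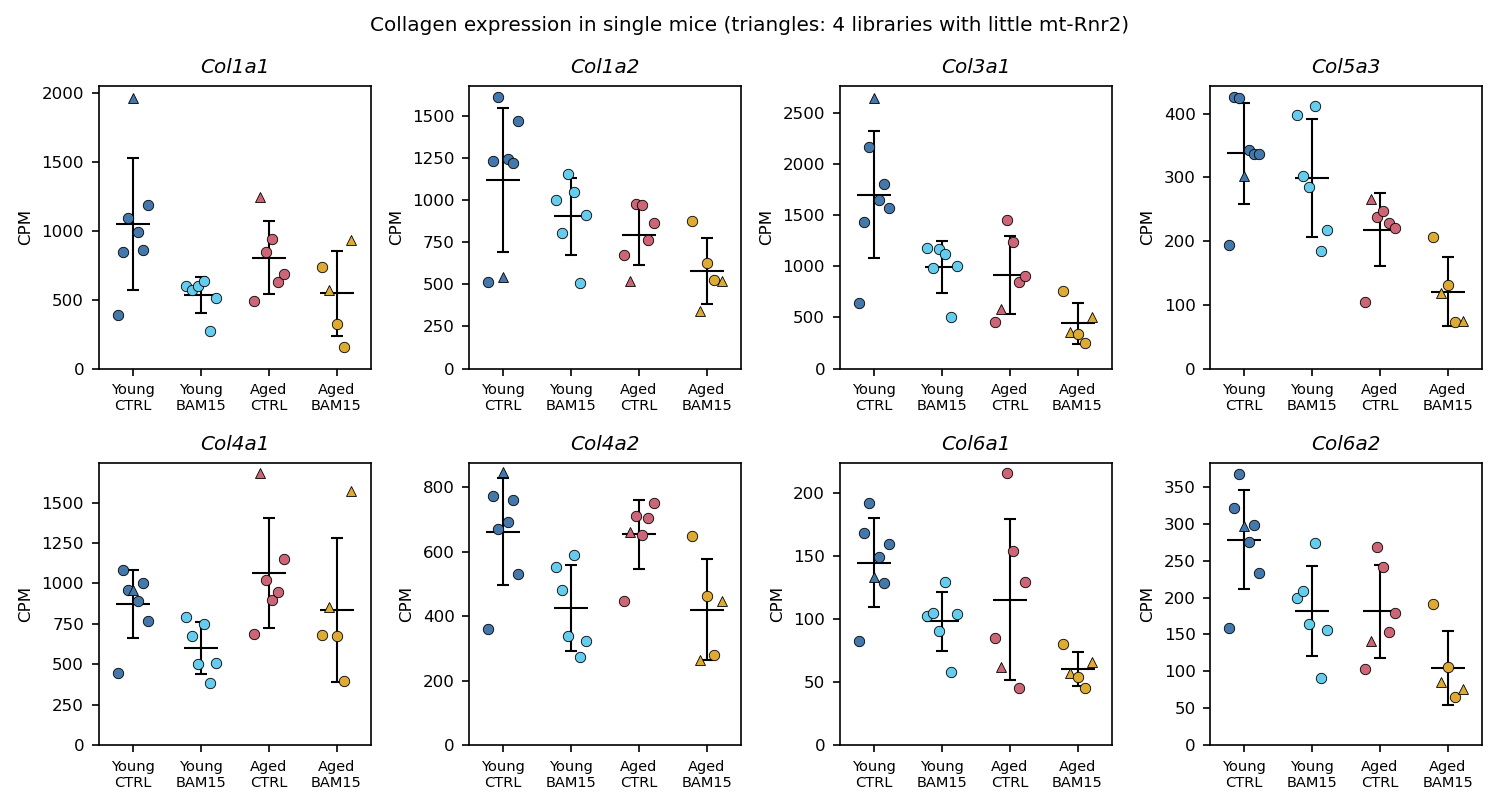
Level in CPM (y axis, from 0) of 8 collagen genes in each mouse of the 4 groups (x axis), with the group mean and SD as black bars and triangles for the 4 libraries with little mt-Rnr2. Col3a1, Col5a3, Col6a1 and Col6a2 have their lowest mean in Aged BAM15, and Col6a1 is the gene whose Aged BAM15 and Young CTRL mice do not overlap.

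Type VI collagen is a trimer of the Col6a1, Col6a2 and Col6a3 chains, and fat is one of the tissues that makes most of it. Col6a1 ran from 82.0 to 192 CPM in Young CTRL (median 149), from 57.9 to 129 CPM in Young BAM15 (median 103) and from 45.3 to 215 CPM in Aged CTRL (median 107), and the 5 Aged BAM15 mice had 45.1, 53.9, 57.1, 65.5 and 80.2 CPM. The highest Aged BAM15 mouse thus lay below the lowest Young CTRL mouse, while Aged CTRL spanned both. It was the 1 collagen gene of 30 without overlap in that comparison, where 0.822% of all genes were lower without overlap. Col6a1 fell by 1.26 ± 0.31 there (adjusted p = 0.0429), and its change with BAM15 in aged mice, -0.93 ± 0.31, had the smallest p of the collagen genes in that contrast (adjusted p = 0.364).

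Col6a2 ran from 158 to 367 CPM in Young CTRL (median 297), from 91.5 to 273 CPM in Young BAM15 (median 182) and from 103 to 269 CPM in Aged CTRL (median 166), and the 5 Aged BAM15 mice had 65.3, 76.4, 85.03, 106 and 191 CPM. It fell by 1.41 ± 0.30 in Aged BAM15 against Young CTRL (adjusted p = 0.0207), with 5 of 5 mice below the Young CTRL mean. Its changes with age, with BAM15 in aged mice and with BAM15 in young mice were -0.62, -0.79 and -0.61. Col6a3, the large chain whose cleaved end is released as endotrophin, had 489 CPM ± 136 in Young CTRL, 343 ± 80.4 in Young BAM15, 359 ± 115 in Aged CTRL and 266 ± 63.6 in Aged BAM15. Its change of -0.88 ± 0.26 in Aged BAM15 against Young CTRL did not pass (adjusted p = 0.0851). Col6a4, Col6a6 and Col28a1 averaged 0.632, 4.43 and 1.33 CPM, and Col6a4 was at 0 counts in 5 of 6 Aged CTRL libraries, so its fitted change of 4.07 with BAM15 in aged mice rests on a group near 0.

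Of the 4 genes that fell, Col3a1, Col5a3 and Col6a2 have a start in RefSeq (GRCm38.p6) equal to their annotated start. The 120 bases upstream of each are shown, 5′ to 3′ on the gene's strand, because these members moved together in the same comparison. Capitals mark TATAAA (the letters of a TATA box) and CCGCCC, which is GGGCGG (the GC box) on the opposite strand. Col3a1 (chr1:45311418-45311537, plus strand), Col5a3 (chr9:20815068-20815187, minus strand) and Col6a2 (chr10:76623631-76623750, minus strand) read:
Col3a1: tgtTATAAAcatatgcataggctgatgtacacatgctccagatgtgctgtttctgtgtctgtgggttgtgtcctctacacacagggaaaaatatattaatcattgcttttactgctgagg
Col5a3: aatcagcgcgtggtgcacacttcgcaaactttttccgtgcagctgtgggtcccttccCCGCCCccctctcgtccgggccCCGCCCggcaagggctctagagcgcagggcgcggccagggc
Col6a2: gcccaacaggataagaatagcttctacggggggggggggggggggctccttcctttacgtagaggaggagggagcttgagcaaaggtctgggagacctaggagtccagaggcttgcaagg

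These stretches differ in make-up. GC content was 40% for Col3a1, 70% for Col5a3 and 60% for Col6a2, and the printed bases held 1 TATAAA in Col3a1, 2 GC boxes in Col5a3 and none of the motifs searched in Col6a2. RefSeq promoters matched 30 of the 37 collagen genes, with 32 entries. In the 250 bases upstream, searched on both strands, GGGCGG was in 62.5% of the 32 collagen entries and in 32.7% of all 32851 promoters. TATAAA was in 12.5% of collagen entries and 12.4% of all. In the window from 40 to 16 bases before the start, where a TATA box usually lies, it was on the gene's strand in 0 of the 32 collagen entries and in 1.99% of all, so the TATAAA shown for Col3a1 lies outside that window. CCAAT, the CCAAT box, was in 37.5% and 33.8%. These are descriptions of letters and say nothing of binding.

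The basement membrane class was led by Col4a1 and Col4a2. They encode the common chains of type IV collagen, lie head to head on chromosome 8 with starts that overlap by 22 bases, and are counted here at their far ends. Col4a1 ran from 448 to 1081 CPM in Young CTRL (median 957), from 381 to 789.9 CPM in Young BAM15 (median 592) and from 688 to 1684 CPM in Aged CTRL (median 985), and the 5 Aged BAM15 mice had 396, 673, 683, 854 and 1575 CPM. All groups overlapped, and Col4a1 differed between Aged BAM15 and Young CTRL by -0.06 ± 0.29. With age its change was 0.29 ± 0.28, one of 9 positive values among the 30 genes.

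Col4a2 averaged 662 CPM ± 166 in Young CTRL (SD, n = 7), 426 ± 133 in Young BAM15 (SD, n = 6), 655 ± 107 in Aged CTRL (SD, n = 6) and 421 ± 157 in Aged BAM15 (SD, n = 5). Its change was thus near 0 with age (-0.02 ± 0.24) and -0.64 with BAM15 at both ages (-0.64 ± 0.25 in young and -0.64 ± 0.27 in aged mice), and the interaction was -0.0004. Neither BAM15 value passed (adjusted p = 0.287 and 0.481), although 6 of 6 and 5 of 5 treated mice lay below the mean of their controls. Col4a4, a chain best known from the kidney, had 12.03 CPM ± 4.07 in Young CTRL and 7.51 ± 2.12 in Aged CTRL (-0.68 ± 0.31, adjusted p = 0.547). Col4a3, Col4a5 and Col4a6 averaged 0.763, 1.29 and 0.430 CPM, too few for a statement.

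On average, type IV genes made up a larger part of the collagen counts in the aged groups than in the young groups. Type IV genes took 20.1% ± 2.76 of collagen counts in Young CTRL (SD, n = 7) and 20.7% ± 2.69 in Young BAM15 (SD, n = 6), against 29.6% ± 5.52 in Aged CTRL (SD, n = 6) and 32.2% ± 5.58 in Aged BAM15 (SD, n = 5). In Young CTRL the share ran from 16.8% to 23.2%, and in Aged CTRL from 22.7% to 37.3%, so the lowest Aged CTRL mouse lay within the Young CTRL range. Fibrillar genes took 58.4%, 59.4%, 51.7% and 48.9% in the same order. Without the 4 libraries with little mt-Rnr2 the type IV shares were 20.7%, 20.7%, 28.0% and 29.7%. These shares sum over members and were not tested.

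**Figure D3:**
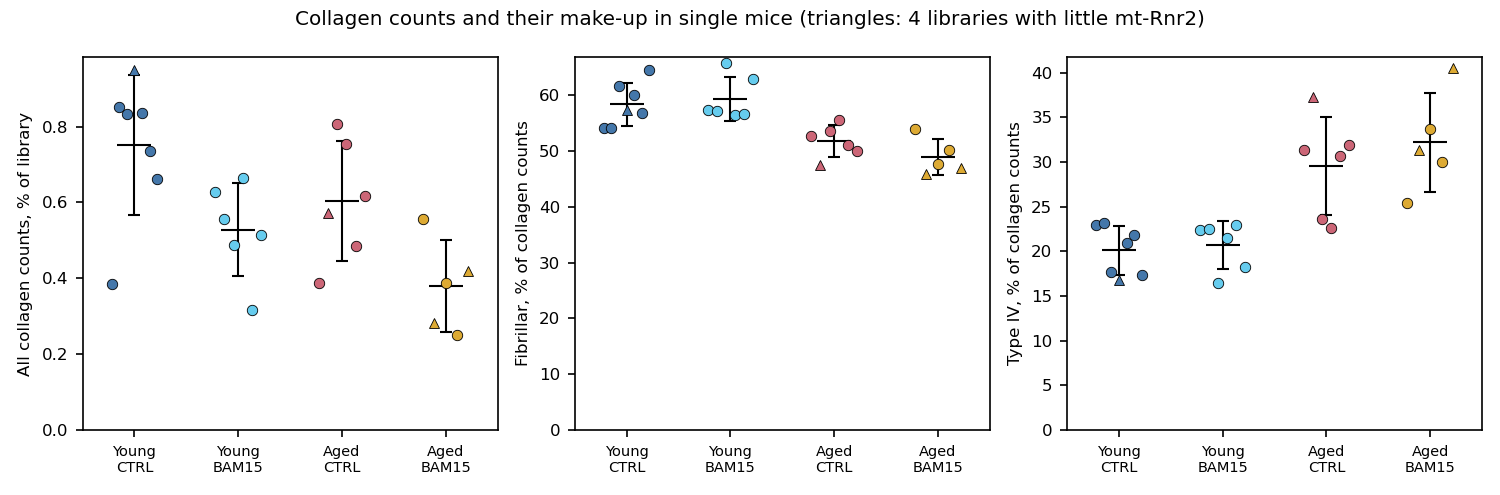
Collagen counts as a percent of the library (left), and fibrillar (middle) and type IV (right) counts as a percent of collagen counts (y axes, from 0), in each mouse of the 4 groups, with mean and SD as bars and triangles for the 4 libraries with little mt-Rnr2. Type IV shares run from 16.5% to 23.2% in the young groups and from 22.7% to 40.55% in the aged groups.

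Col15a1 and Col18a1 encode the multiplexins, whose cleaved ends are known as restin and endostatin. Col15a1 ran from 197 to 1412 CPM in Young CTRL (median 509), from 116 to 355 CPM in Young BAM15 (median 221) and from 59.5 to 405 CPM in Aged CTRL (median 276), and the 5 Aged BAM15 mice had 38.7, 55.9, 141, 262 and 306 CPM. Every other group had a mean below the Young CTRL mean of 576 CPM, but the spread within groups was wide. The 1412 CPM came from Young CTRL 4, a library with little mt-Rnr2, and the next highest of the 24 libraries had 611 CPM. The changes were -1.07 ± 0.49 with age, -1.28 ± 0.49 with BAM15 in young mice and -1.84 ± 0.53 in Aged BAM15 against Young CTRL (adjusted p = 0.0778), and none passed. Col18a1 had 97.3 CPM ± 26.7, 72.6 ± 29.8, 83.0 ± 22.5 and 58.6 ± 12.8 in Young CTRL, Young BAM15, Aged CTRL and Aged BAM15.

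Fibril-associated collagens sit on the surface of fibrils, and 2 of them had higher means in Aged CTRL than in Young CTRL. Col16a1 had 28.1 CPM ± 3.45 in Young CTRL and 46.4 ± 21.8 in Aged CTRL (0.72 ± 0.42), and Col12a1 had 5.71 ± 2.40 and 10.5 ± 3.97 (0.88 ± 0.45), and neither change passed. Both were lower with BAM15 at unadjusted p in aged mice, Col16a1 by a log2 change of -1.21 ± 0.47 (adjusted p = 0.429) and Col12a1 of -1.04 ± 0.50 (adjusted p = 0.548). The 5 Aged BAM15 mice had 5.03, 9.05, 10.98, 15.7 and 59.1 CPM of Col16a1, so 1 mouse stood far above the other 4, and without that mouse (Aged BAM15 1) the change was -2.18 (adjusted p = 0.0336). Col14a1 had 50.7 CPM ± 25.8, 25.7 ± 13.5, 33.0 ± 10.4 and 25.3 ± 9.94 in Young CTRL, Young BAM15, Aged CTRL and Aged BAM15. Col20a1 averaged 0.621 CPM.

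Col8a1, a network-forming collagen of vessel walls, was at 13.01 CPM ± 9.03 in Young CTRL, 11.3 ± 3.88 in Young BAM15, 12.8 ± 7.85 in Aged CTRL and 8.54 ± 4.90 in Aged BAM15. Col7a1, the anchoring fibril collagen of skin, averaged 1.14 CPM. Col23a1, a transmembrane collagen, had 5.79 CPM ± 1.23, 6.57 ± 2.02, 8.26 ± 2.90 and 7.31 ± 1.67 in the same order, and Col13a1 averaged 2.15 CPM. None of these genes had an adjusted p under 0.05 in any comparison.

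The 4 calls depend on the mice and the method. Leaving out each mouse of both groups in turn, Col3a1 stayed past the threshold in 12 of 12 fits, Col5a3 in 11, Col6a2 in 8 and Col6a1 in 3. The number of calls was 1 without Aged BAM15 5, 2 without Aged BAM15 2, 3 or 4, and 9 without Aged BAM15 1. Without the 4 libraries with little mt-Rnr2, 3 of which belong to these 2 groups, 0 passed. The log2 changes were then -1.77 for Col3a1 (adjusted p = 0.0527), -1.32 for Col5a3 (adjusted p = 0.0787), -1.19 for Col6a2 (adjusted p = 0.139) and -1.29 for Col6a1 (adjusted p = 0.113). Without the 3 libraries with skin keratins or most muscle transcripts, Col6a1 was no longer called (-1.35, adjusted p = 0.0675) and Col5a1 was (-1.36, adjusted p = 0.0429). A fit to the 2 groups alone called 0, the DESeq2 Wald test called 8 and limma-voom 15, all lower. Calls over all genes moved too, from 205 in the fit to all 24 libraries to 29 in the fit to these groups alone, 826 with DESeq2, 1633 with limma-voom and 630 without Aged BAM15 1.

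The method mattered for BAM15 in aged mice as well. There limma-voom with sample quality weights called 10 collagen genes, all lower (Col1a1, Col3a1, Col5a1, Col5a2, Col5a3, Col6a1, Col6a2, Col12a1, Col15a1 and Col16a1), among 966 calls over all genes, while edgeR and the DESeq2 Wald test called 0 of the collagen genes. With age, with BAM15 in young mice and in the interaction, the count was 0 with edgeR, DESeq2 and limma-voom.

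Ratios of partner chains within a library do not depend on the scaling between libraries. Of 24 two-sided exact permutation tests (8 ratios in 3 comparisons), 1 passed after adjustment over the 24. The Col3a1/Col5a2 log2 ratio was 3.22 ± 0.18 in Young CTRL (SD, n = 7), against 2.35 ± 0.49 in Aged CTRL (SD, n = 6), a difference of -0.88 (exact permutation p = 0.000583, the smallest that these group sizes allow, adjusted p = 0.0140). Young CTRL mice ran from 2.95 to 3.45 and Aged CTRL mice from 1.41 to 2.79, with no overlap. The 2 genes are neighbours on chromosome 1, end to end with 24614 bases between them, and type V chains are laid down together with types I and III in fibrils. Without the 4 libraries the difference was -0.71 and the groups still did not overlap, but with 5 and 6 mice no single ratio can pass (smallest adjusted p 0.0520, exact permutation).

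Another 5 ratios had an exact permutation p under 0.05 that did not survive adjustment. Col1a1/Col1a2 differed by -0.65 with BAM15 in young mice (exact permutation, adjusted p = 0.0699), and Col5a1/Col5a2 by -0.36 with age (exact permutation, adjusted p = 0.0699). Also with age, Col1a1/Col3a1 differed by 0.60, Col4a1/Col4a2 by 0.27 and Col1a1/Col4a1 by -0.59 (exact permutation, adjusted p = 0.140, 0.123 and 0.123). The ratios of the type VI chains, Col6a1/Col6a2 and Col6a1/Col6a3, had no p under 0.05 in any of the 3 comparisons. Several ratios moved without the 4 libraries with little mt-Rnr2, and none passed then. Col1a1/Col1a2 differed by -0.33 with BAM15 in young mice, and by -0.71 in place of -0.25 with BAM15 in aged mice. With age, Col4a1/Col4a2 differed by 0.09, Col1a1/Col3a1 by 0.40, Col1a1/Col4a1 by -0.44 and Col5a1/Col5a2 by -0.25. Col5a1/Col5a2 differed by 0.31 with BAM15 in aged mice, where the value over all libraries was -0.004.

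Most of the collagen chain pairs tested varied together across mice. With group means removed, 7 of 8 pairs were correlated over the 24 mice after adjustment over the pairs. The closest was Col5a1 with Col5a2 (r = 0.86, permutation p = 1e-05, the smallest that the resamples can give, adjusted p = 8e-05, and rho = 0.79, permutation p = 6e-05, adjusted p = 0.00024), and r was 0.80 without the 2 mice farthest from the median. Col6a1 and Col6a2 had r = 0.74 (permutation p = 5e-05, adjusted p = 0.0001) and rho = 0.75 (permutation p = 5e-05, adjusted p = 0.00024), and r was 0.81 without the 2 farthest mice. Col1a1 and Col4a1, a fibrillar and a basement membrane chain that share no trimer, had r = 0.79 (permutation p = 3e-05, adjusted p = 8e-05) and rho = 0.58 (permutation p = 0.0038, adjusted p = 0.00434), and r was 0.65 without the 2 farthest mice. Over the 20 libraries without low mt-Rnr2 this pair had r = 0.74 (permutation p = 0.00024, adjusted p = 0.00024). Its rho was then 0.42 and did not pass (permutation p = 0.06675, adjusted p = 0.06675), and r was 0.55 without the 2 farthest mice. Pairs of other genes were not tested.

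The exception was Col1a1 and Col1a2, whose products assemble into type I collagen. Over 24 mice r was 0.21 (permutation p = 0.319, adjusted p = 0.319) and rho 0.21 (permutation p = 0.313, adjusted p = 0.313), and r was -0.01 without the 2 farthest mice. Over the 20 libraries without low mt-Rnr2, r was 0.88 and rho 0.93 (permutation p = 1e-05 for each, adjusted p = 1.6e-05), and r was 0.87 without the 2 farthest. The Col1a1/Col1a2 log2 ratio was 1.84 in Young CTRL 4, 1.25 in Aged CTRL 2, 0.75 in Aged BAM15 2 and 0.84 in Aged BAM15 5, and it ran from -1.75 to -0.05 in the other 20 libraries. These 4 libraries come from 3 groups, and Young BAM15 has none of them. The Col1a1/Col1a2 ratio in these libraries stood apart from that in the rest. In the aged libraries of the 4, in the order above, other ratios did too. Col4a1/Col4a2 was 1.35, 1.70 and 1.81 (at most 0.66 in the other 20), and Col1a1/Col3a1 1.11, 0.68 and 0.88 (at most 0.12). Col3a1/Col5a2 was 1.41, 1.27 and 1.31 (at least 2.14), and Col5a1/Col5a2 -0.45, -0.52 and -0.82 (at least -0.22). Young CTRL 4 lay within the range of the other 20 for Col4a1/Col4a2, Col1a1/Col3a1 and Col3a1/Col5a2. Col6a1/Col6a3 lay within it in all 4. The cause was not tested.

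**Figure D4:**
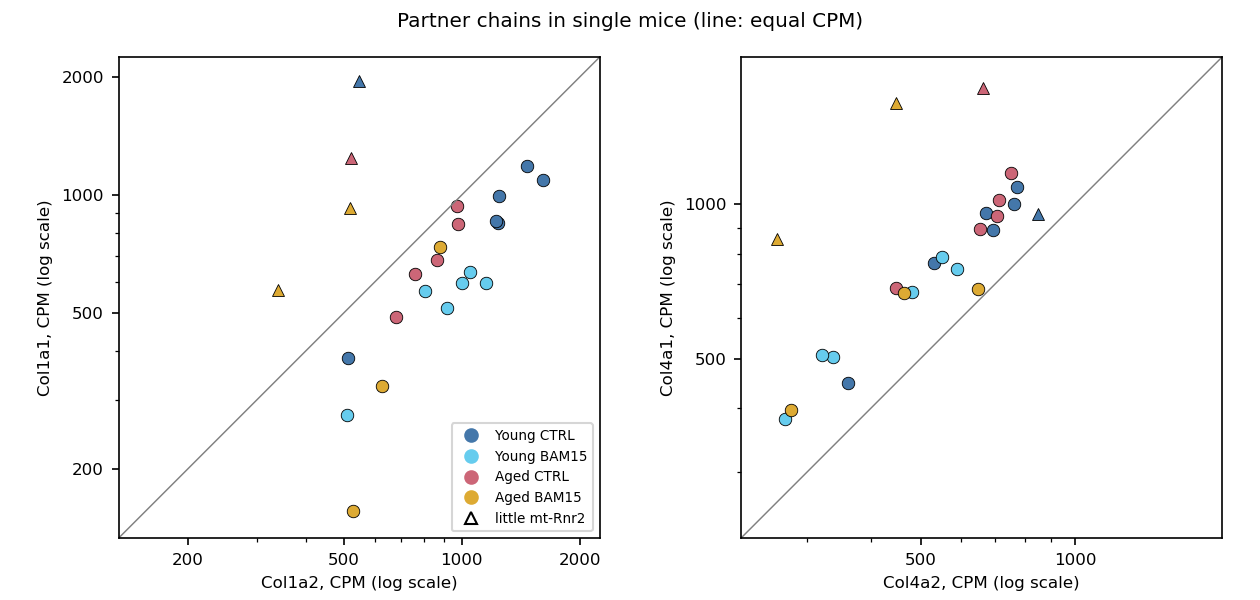
Levels of Col1a1 against Col1a2 (left) and Col4a1 against Col4a2 (right) in each of the 24 mice, on log axes in CPM, coloured by group, with triangles for the 4 libraries with little mt-Rnr2 and a line where both levels are equal. All 4 triangles lie above the line for Col1a1 and Col1a2, and the other 20 mice lie below it. For Col4a1 and Col4a2, the triangles of aged mice have log2 ratios from 1.35 to 1.81. That ratio is at most 0.66 in the other 20 mice and 0.17 in Young CTRL 4.

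Enzymes and partners of collagen were read from lists of the pathway. Of the genes for collagen folding, hydroxylation and processing, 25 were tested and 0 passed in any comparison. In aged mice with BAM15, 23 of the 25 had a log2 change below 0, with a median of -0.42, and 4 were lower at an unadjusted p under 0.05. Over all genes in that comparison, 48.3% lay below 0, the median was 0.02, and 4.59% were lower at that threshold. The smallest p values there belonged to Plod1, a lysyl hydroxylase (-0.83 ± 0.25, adjusted p = 0.306), and Ppib, a prolyl isomerase of the endoplasmic reticulum (-0.82 ± 0.30, adjusted p = 0.404). With age the median of the list was 0.17, and P3h3, a prolyl 3-hydroxylase, had the smallest p (1.35 ± 0.40, adjusted p = 0.207).

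Among 12 genes for cross-linking and fibril assembly, Thbs2, the matrix protein thrombospondin 2 that limits fibril size and vessel growth, rose by 2.36 ± 0.33 with age (adjusted p = 0.00120) and by 2.56 ± 0.35 in Aged BAM15 against Young CTRL (adjusted p = 0.000677). It was the 1 gene of that list that passed. Lox, the lysyl oxidase that cross-links collagen, had a change of 1.36 ± 0.48 with age (adjusted p = 0.337). In aged mice with BAM15, Bgn (biglycan) and Sparc, both collagen-binding, had changes of -0.64 ± 0.21 and -1.03 ± 0.36, and neither passed (adjusted p = 0.351 and 0.395).

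Of 15 tested genes for collagen breakdown and its inhibitors, the genes that passed were inhibitors. Timp3, a matrix-bound inhibitor of metalloproteinases, rose by 1.09 ± 0.22 with age (adjusted p = 0.0278) and by 1.30 ± 0.23 in Aged BAM15 against Young CTRL (adjusted p = 0.00531). Timp4, an inhibitor abundant in fat, rose by 2.24 ± 0.35 in the latter (adjusted p = 0.00201), and its change with BAM15 in aged mice was 1.39 ± 0.36 (adjusted p = 0.250). Ctsk, the collagen-degrading cathepsin K, had changes of -1.06 ± 0.31 with BAM15 in young mice and -1.04 ± 0.33 in aged mice (adjusted p = 0.197 and 0.339).

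Of 14 other matrix genes, Postn (periostin), which binds collagen, fell by 1.38 ± 0.32, and Tnc (tenascin C) fell by 1.55 ± 0.37, in Aged BAM15 against Young CTRL (adjusted p = 0.0329 and 0.0370). The groups did not overlap for either gene, where 0.822% of all genes were lower without overlap. With age, Fbln2 and Fbln5, 2 fibulins of elastic fibres, had changes of 1.16 ± 0.27 and 1.26 ± 0.33, and neither passed (adjusted p = 0.0788 and 0.137). None of 12 laminin and other basement membrane genes passed in any comparison, and 1 value in that list had an unadjusted p under 0.05 in the 4 comparisons of 2 groups (Nid2, -0.52 ± 0.25, with BAM15 in young mice).

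Of 10 tested collagen receptors, 0 passed. Cd44, a receptor for hyaluronan and collagen, had the smallest p in aged mice with BAM15 (-1.18 ± 0.28, adjusted p = 0.220), and Lair1, an inhibitory collagen receptor of leukocytes, with age (1.25 ± 0.39, adjusted p = 0.248). In the TGF-beta list, the main signal that raises collagen transcription, 0 of 18 passed. Tgfbr2, a receptor for TGF-beta, had a change of 0.58 ± 0.19 with age (adjusted p = 0.266), and Ltbp3, which binds latent TGF-beta, had a change of -0.62 ± 0.29 with BAM15 in aged mice (adjusted p = 0.522). The median change of that list was 0.35 with age, where the collagen median was -0.34.

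Markers of fibroblasts and progenitors were read beside the 4 collagen genes that fell. In Aged BAM15 against Young CTRL, 1 of the 10 markers passed, Ly6a (Sca-1), which rose by 0.97 ± 0.22 (adjusted p = 0.0286), and 0 were lower at an unadjusted p under 0.05 (7.85% of all genes were). The list's median was 0.39, with 6 of the 10 changes above 0 and 4 below. Pdgfra, the receptor that defines these cells, had a change of 0.90 ± 0.25 (adjusted p = 0.0732), and the proteoglycan gene Dcn, also in the fibril assembly list, 0.61 ± 0.23 (adjusted p = 0.176). Summed levels of the 10 markers ran from 801 to 2171 CPM in Young CTRL and from 1832 to 3295 CPM in Aged BAM15, and 0 of the 10 were at 0 counts. Among further marker lists in that comparison, 0 genes passed of 7 for endothelium, 7 for mural cells, 8 for macrophages, 8 for skeletal muscle, 8 for B cells, 2 for mammary epithelium and 1 for cartilage and tendon. A single gene passed for adipocytes (Cfd, 1.47 ± 0.34, adjusted p = 0.0298) and for keratinocytes (Dsp, -9.56 ± 2.33, adjusted p = 0.0458), the latter high in the libraries with skin keratins. Their part in the collagen results was not tested.

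With BAM15 in young mice all 8 B cell markers had a log2 change above 0 (median 2.43), where the collagen median was -0.47. None of the 8 markers passed in any comparison. Their summed level (8 markers, none at 0 in a whole group) ran from 1.39 to 336 CPM in Young CTRL (median 2.81), from 2.22 to 1218 CPM in Young BAM15 (median 393), from 3.84 to 191 CPM in Aged CTRL (median 9.03) and from 1.61 to 313 CPM in Aged BAM15 (median 151). Young BAM15 5 had both the highest B cell level and the lowest summed collagen of its group (2875 CPM). In Young CTRL, collagen ran from 3549 to 10810 CPM, and 2 mice with B cell markers differed in it. Young CTRL 5 had the highest summed B cell level of that group (336 CPM) with 7655 CPM of collagen. Young CTRL 1 had 317 CPM of B cell markers with the lowest collagen, 3549 CPM. On the mean log2 CPM of the markers, Young CTRL 1 was the higher of these mice (4.86 against 4.84). With the mean log2 CPM of these markers as a covariate, a choice made after seeing the data, the count of collagen genes lower at an unadjusted p under 0.05 with BAM15 in young mice went from 10 to 0, and the median change from -0.47 to -0.18. Col1a1 went from -0.98 to -0.51, Col3a1 from -0.78 to -0.18 and Col15a1 from -1.28 to -0.53. B cell level largely went with treatment in young mice, so the parts of both in these shifts cannot be told apart. In the same fit Aged BAM15 against Young CTRL still had 4 calls, with Col3a1 at -1.76 (adjusted p = 0.00260).

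**Figure D5:**
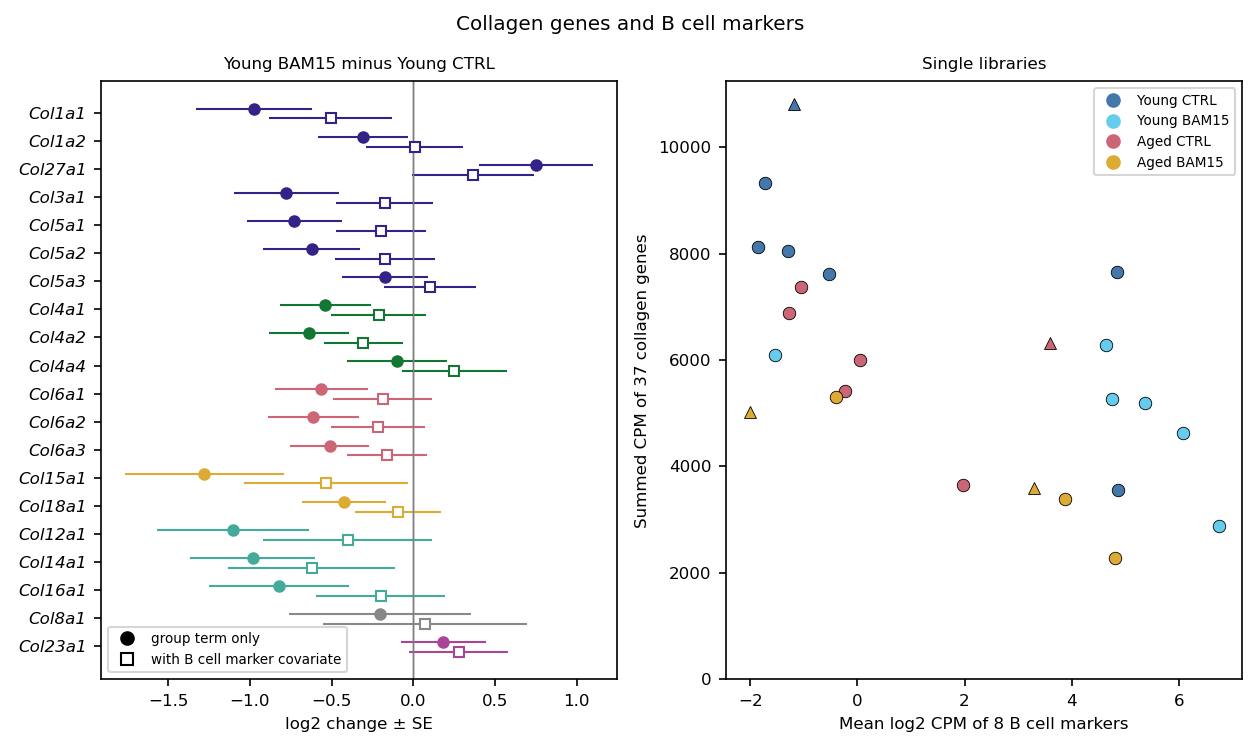
Left, log2 change with standard error of the 20 collagen genes with at least 5 CPM in Young BAM15 against Young CTRL, from the fit with the group alone (filled circles) and with B cell marker level as a covariate (open squares), coloured by class. Right, summed CPM of the 37 collagen genes against the mean log2 CPM of 8 B cell markers in each library, with triangles for the 4 libraries with little mt-Rnr2. With the covariate, the median over the 30 tested genes is -0.18 in place of -0.47. B cell level and treatment largely go together in young mice and cannot be told apart there.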

How the data were processed

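RNA of 24 mice was sequenced from 3′ ends with the QuantSeq kit, per the labels' protocols. The authors deposited raw counts per Ensembl gene and a signal table, in which each library's counts are scaled by 1 factor (largest deviation from that rule 5.82e-09 counts), used here for symbols only. The submitters' processing notes name R 3.4.3, DESeq2 1.18.1 and GRCm38. For aligner, counter and annotation nothing is stated in the sources used here.

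Library totals were 8.62 to 21.9 M counts. The edgeR 4.0.16 quasi-likelihood test (R 4.3.3, TMM factors, filterByExpr, robust) was fitted to all 24 libraries by group, with 15939 genes kept, 1602 removed and 20 residual degrees of freedom. P values were adjusted over those genes with the Benjamini-Hochberg method, genes were called under 0.05, and SE was computed as the log2 change over the root of F. Log2 CPM used a prior count of 2. Ratios were tested with two-sided exact permutation over mice, and correlations with 100000 resamples. DESeq2 1.42.0 and limma 3.58.1 (voom) were alternatives. The fit was tested on simulated data.

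Genes named are 12 representatives, all called members, the 3 smallest p values per comparison among genes of at least 5 CPM, the top gene of each class, and in the related lists up to 3 genes of smallest p in the age and aged BAM15 comparisons and all called genes. Others were named after their values were seen. The members and lists were chosen with earlier results of these data known. Marker lists of endothelium, mural cells, macrophages, mammary epithelium, cartilage and tendon were also counted. The results of some genes and of 1 marker list are not reported here. A planned description of protein sequences was not run. Replicate numbers were treated as names of mice only. Counts of same-group mice differed beyond sampling noise in all 61 pairs (chi-square per gene at least 19.8).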

Additional observations from a re-analysis of the deposited data

Results flagged for a closer look

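In 64 groups of 5 to 7 mice (16 collagen genes in 4 groups), 11 had a lowest mouse whose gap to its nearest neighbour was large for the range of the group, both on the log2 CPM scale, by Dixon's criterion at 95%, where chance gives about 1 in 20. On CPM itself, a scale tried after seeing the data, 6 groups met the criterion, and 4 did so on both scales. Mice recur among them. Young BAM15 5 was low in Col1a1 (275.1 CPM, next 513.5), Col3a1 (498.5 CPM, next 980.6) and Col5a2 (60.56 CPM, next 108.3). Young CTRL 1, a library with skin keratins, was low in Col3a1 (639.8 CPM, next 1434), Col4a1 (448.4 CPM, next 768.4) and Col14a1 (12.62 CPM, next 39.37). Aged CTRL 1, the library of its group with most muscle transcripts, was low in Col4a2 (448.3 CPM, next 653), Col5a3 (104.9 CPM, next 220.7) and Col15a1 (59.52 CPM, next 228.8). Aged CTRL 2, which has little mt-Rnr2, was low in Col14a1 (15.09 CPM, next 30.75) and Col8a1 (0.4163 CPM, next 6.078). The cause was not tested.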

How the results depend on the processing

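The count of 4 collagen genes called in Aged BAM15 against Young CTRL was 0 with the replicate block, 0 in a fit to both groups alone, 0 without the 4 libraries with little mt-Rnr2, 8 with the DESeq2 Wald test and 15 with limma-voom, and from 1 to 9 on leaving out 1 mouse. It was 4 with DESeq2 size factors, without a filter, with a 1 CPM filter and with the B cell covariate, and 4 without the 3 libraries with skin keratin or most muscle transcripts, with Col5a1 in place of Col6a1. For BAM15 in aged mice the count of 0 became 10 with limma-voom and ran from 0 to 1 on leaving out 1 mouse. It was 0 under every alternative run with age, with BAM15 in young mice and in the interaction. Replicate numbers were treated as names of mice. Same-numbered libraries correlated at a median r of -0.04 in 33 pairs, against 0.00 in 182 others. A median near 0 cannot show that no mice were paired. The 1 ratio that passed became 0 without the 4 libraries and ran from 0 to 2 on leaving out 1 mouse, and the 0s are set by group size, since without a Young CTRL mouse (6 against 6) no single ratio can pass. Correlated pairs went from 7 to 8 without the 4 libraries by r, and by rho Col1a1 with Col4a1 no longer passed. Signs near 0 turned. With the B cell covariate, Col1a2, Col5a3 and Col8a1 with BAM15 in young mice became 0.008, 0.10 and 0.0723, Col4a1 in Aged BAM15 against Young CTRL 0.0167 and Col4a2 with age 0.001. Without the 4 libraries, Col4a2, Col5a2 and Col8a1 with age became 0.0497, 0.0362 and 0.0909. Col8a1 with age was 0.0917 with limma-voom and 0.12 without the 3 libraries. On leaving out 1 mouse, the ranges that crossed 0 were -0.27 to 0.0081 for Col23a1 with BAM15 in aged mice, -0.42 to 0.12 for Col4a1 in Aged BAM15 against Young CTRL, -0.12 to 0.0704 for Col4a2, -0.18 to 0.11 for Col5a2 and -0.21 to 0.25 for Col8a1 with age, and -0.42 to 0.0658 for Col8a1 with BAM15 in young mice. Outside single mice, 10 of 679 alternatives of 73 gene results turned their sign, and 634 kept sign and side of the threshold. Depth limits the 11 genes under 1 CPM.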
